A study of Mus musculus with 24 samples.

Results

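Cholesterol synthesis and transport was followed through 32 genes, given as a list of symbols that was chosen with earlier results of these data known. All 32 were among the 16233 genes of the deposited table. They comprised 19 synthesis enzymes, 4 genes of the SREBP control system, 5 genes of sterol uptake, movement and storage, and 4 genes of sterol efflux and oxysterol handling. RNA was sequenced from a subcutaneous fat depot, the inguinal white adipose tissue, of male C57BL6 mice aged 10 to 11 weeks. Animals were exercised for 1 hour (RUN) or spent the hour sham-treated on an artificial treadmill (SED), and were sampled at ZT3 in the early rest phase or ZT15 in the early active phase (ZT is the number of hours since the lights came on). Each of the 4 groups, called ZT3_SED, ZT3_RUN, ZT15_SED and ZT15_RUN, held 6 libraries, and no genetic change or drug is named for any group. The hour between the bout and sampling is not stated in the labels of these libraries. Replicate numbers pair no libraries, and p-values measure the spread between libraries, since no label states outright that each is a separate mouse.

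Cells build cholesterol from acetyl-CoA through the mevalonate pathway, which passes through farnesyl diphosphate, squalene and lanosterol. When membrane cholesterol is low, SCAP escorts the transcription factor SREBP2 from the endoplasmic reticulum to the Golgi for activation, and INSIG proteins hold it back when sterol is plentiful. Surplus cholesterol is esterified by SOAT1 or exported by ABCA1 and ABCG1, whose genes are induced by the oxysterol receptors LXR alpha and LXR beta. White adipocytes hold a large pool of free cholesterol in and around the lipid droplet and take much of it from lipoproteins.

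Since SREBP2 acts through promoter DNA, the upstream sequence of the members was searched for a sterol response element core (CACNCCAC), the CCAAT box bound by NF-Y, and an E-box (CACGTG, a palindrome). Both strands were read, and none of these motifs contains another. RefSeq windows of assembly GRCm38.p6, which run from 250 bases before to 50 bases after a start site, matched 26 of the 32 members by symbol, 16 of them enzymes. The unmatched members were Fdps, Fdft1, Sqle, Stard4, Npc1 and Abcg1. A CCAAT box lay in a window of 15 of 16 enzymes and of 22 of 26 members, against 41.1% of all 27025 genes in the table. The sterol response element core lay in 3 members, Hmgcs1, Acat2 and Insig1. The first 2 are enzymes, which makes 12.5% of the 16 enzymes against 7.12% of all genes. An E-box lay in 18.8% of the enzymes (3 of 16) and 8.09% of all genes. These are letter matches in a fixed window and show no binding. The 250 bases upstream of 4 genes are printed below 5′ to 3′ in the direction of the gene: the 3 with the core, which recur in the results, and Ggps1, the enzyme whose level stayed apart from the others. Runs of 8 capitals mark the core and runs of 5 capitals the CCAAT box, each on either strand.
Hmgcs1 (chr13:119690101-119690350, plus strand): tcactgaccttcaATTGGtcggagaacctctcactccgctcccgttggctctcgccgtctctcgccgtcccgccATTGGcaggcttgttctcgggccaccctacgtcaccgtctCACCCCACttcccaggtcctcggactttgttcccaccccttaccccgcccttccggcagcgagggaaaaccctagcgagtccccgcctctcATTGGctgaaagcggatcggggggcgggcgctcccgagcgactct
Acat2 (chr17:12960726-12960975, minus strand): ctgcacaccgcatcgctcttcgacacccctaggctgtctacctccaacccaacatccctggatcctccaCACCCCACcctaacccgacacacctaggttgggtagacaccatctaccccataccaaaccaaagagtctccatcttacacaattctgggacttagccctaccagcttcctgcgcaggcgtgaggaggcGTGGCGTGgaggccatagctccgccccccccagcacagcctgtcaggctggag
Insig1 (chr5:28071162-28071411, plus strand): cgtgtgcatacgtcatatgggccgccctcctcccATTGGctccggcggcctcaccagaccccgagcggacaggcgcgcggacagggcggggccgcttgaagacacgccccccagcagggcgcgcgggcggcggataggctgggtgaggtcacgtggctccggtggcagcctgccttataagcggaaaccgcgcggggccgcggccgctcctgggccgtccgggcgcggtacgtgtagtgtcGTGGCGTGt
Ggps1 (chr13:14063489-14063738, minus strand): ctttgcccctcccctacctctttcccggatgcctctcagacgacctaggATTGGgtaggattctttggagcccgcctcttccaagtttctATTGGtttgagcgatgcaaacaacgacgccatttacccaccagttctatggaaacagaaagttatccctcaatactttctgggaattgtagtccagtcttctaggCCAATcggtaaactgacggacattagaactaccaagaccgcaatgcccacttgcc

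Acat2 was the enzyme without a CCAAT box among the 16 that matched, and it carried the core at 2 places, starting 181 and 53 bases before the start site. In Hmgcs1 the core began 136 bases before the start, with a CCAAT box on each side of it. A stretch just after this start site was not found near the start of a GENCODE M21 transcript of Hmgcs1, unlike for the other printed genes. Its distances are therefore less certain. Insig1 had its core within 9 bases of the start and a CCAAT box from base 216 upstream. Ggps1 had 3 CCAAT boxes and no core in this window.

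Library depth and tissue makeup bear on every value below. Recovered reads ranged from 18.5 to 34.7 M (mega) per library, and the fewest reads of any member in a library were 77. Adipoq, the adipocyte hormone adiponectin, was at 1101 to 3183 in every library, and all 6 adipocyte markers were above 0 throughout. Its lowest values were 1101 in ZT3_RUN_4 and 1223 in ZT15_SED_5, and the next was 1928 in ZT15_RUN_6. The B cell gene Cd79a reached 99.2 in ZT3_RUN_4, 54.6 in ZT15_SED_5 and, less, 14.1 in ZT15_SED_3, and was at most 1.33 in the other 21. Those 3 libraries are called lymph node rich here, since the inguinal depot holds a lymph node. Ucp1, the uncoupling protein of brown and beige fat, was at 208 in ZT15_SED_1, 532 in ZT15_RUN_1 and 526 in ZT15_RUN_6 and at most 73.8 elsewhere. The muscle myosin Myh4 ranged from 0.631 to 22114. Where one of these sets of libraries touches a member, its values are given beside the result. In bulk tissue, fewer cells of a type and less RNA per cell cannot be told apart.

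Levels are the deposited normalized signal, reads scaled by a factor for each library, unless said to be per kb of exon. Per kb of exon, Insig1, the sterol-sensing brake on SREBP activation, had the highest mean over the 24 libraries, 138. Npc2, which moves free cholesterol out of lysosomes, was next at 93.3 per kb, followed by the efflux pump Abca1 at 80.1 per kb. Among the enzymes, Hmgcs1 (HMG-CoA synthase) led at 56.0 per kb, ahead of phosphomevalonate kinase Pmvk at 48.4, the late desaturase Sc5d at 42.6 and the acetyl-CoA thiolase Acat2 at 37.6. The lowest means were 1.41 per kb for Idi1, isopentenyl diphosphate isomerase, and 1.63 for Fdps, farnesyl diphosphate synthase. Exon length is the union of all annotated exons in GENCODE M21, which lowers the value of genes with many alternative exons, and reads of Fdps may be lost to near-identical copies in the genome. Fdps also shares 26.7% of its exon bases with Gm43738 on the same strand, and the part of shared reads was not tested.

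**Figure D1:**
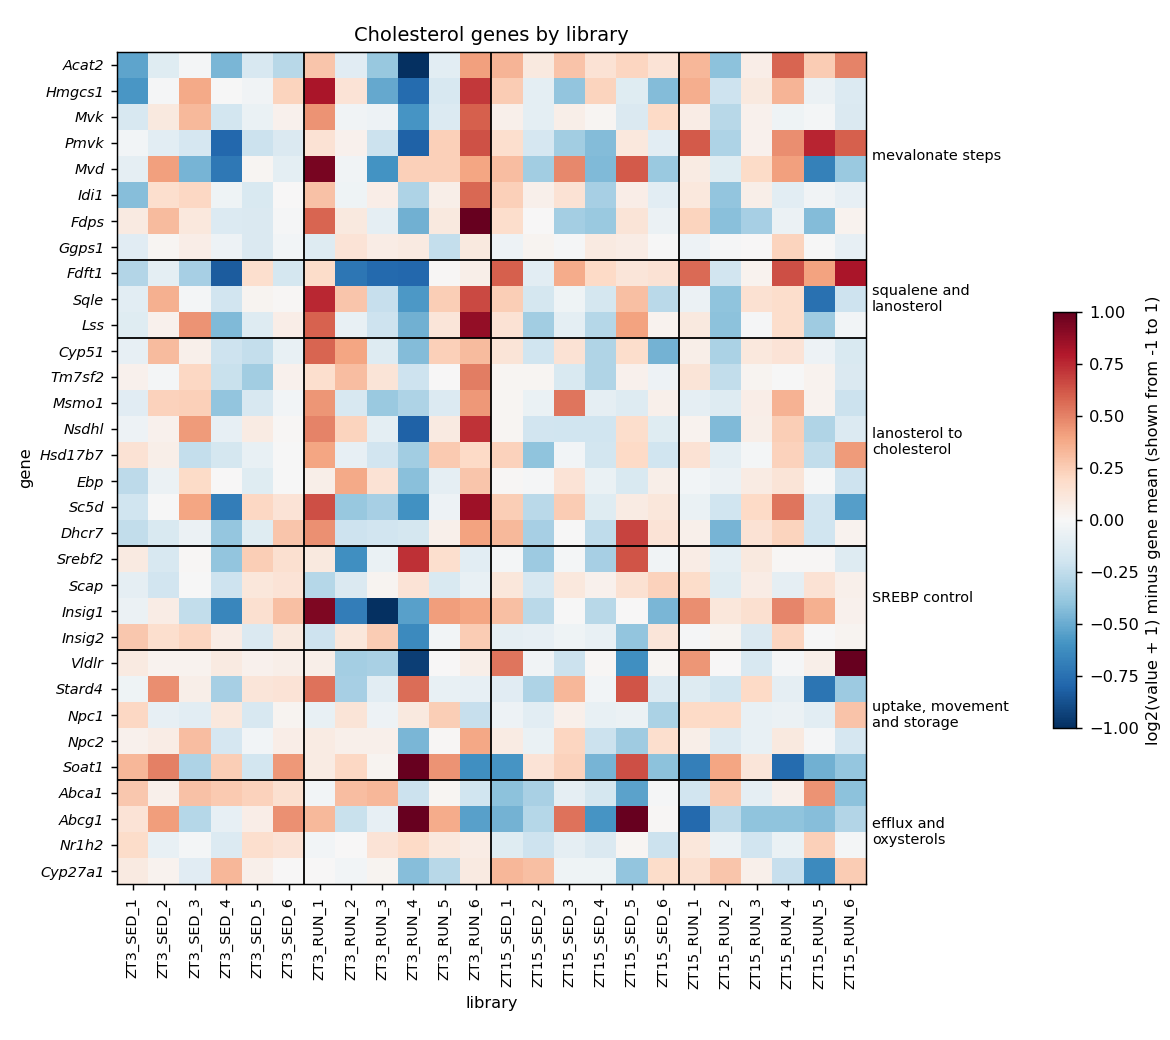
Each cell is 1 of the 32 genes (rows, by role) in 1 of the 24 libraries (columns, by group), coloured by log2(value + 1) minus the mean of that gene over all libraries, with colours ending at -1 and 1. Apart from Ggps1, the enzyme rows are red in ZT3_RUN_1 and ZT3_RUN_6 and mostly blue in ZT3_RUN_4 and ZT3_SED_4.

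Exercise at ZT3 was compared first, and the synthesis enzymes leaned upward by amounts smaller than the spread between libraries. None of the 32 members passed the limma test at an adjusted p under 0.05, with a smallest adjusted p of 0.989. Over all 16233 genes, 0% passed (0 genes), 368 had an unadjusted p under 0.05, and none of those 368 was a member (0 of 32). The log2 difference RUN minus SED was above 0 for 18 of the 19 enzymes, with a median of 0.10 and a range from -0.08 to 0.35, while 51.8% of all genes lay above 0. The enzymes rise and fall together between libraries, as described below, so their signs are not separate observations. Over all 32 members, 24 lay above 0. That count was 18 without ZT3_RUN_1, 19 without ZT3_SED_4 and 25 without ZT3_SED_2, so the lean depended in part on single libraries. No member (0 of 32) had all libraries of 1 group above all of the other, compared with 0.0739% of all genes.

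Mvd, the mevalonate diphosphate decarboxylase, had the largest value in this comparison. Its signal was 6.15, 10.0 and 14.6 (lowest, median, highest) in ZT3_SED and 6.75, 12.8 and 21.6 in ZT3_RUN. The ranges overlapped over most of their length, and the log2 difference of 0.35 had a 95% interval that ended at 0.86. Leaving out 1 library gave Mvd values from 0.20, without ZT3_RUN_1, to 0.51. Sterol reductase Tm7sf2 and lanosterol demethylase Cyp51 both differed by 0.20 on the log2 scale, and by as little as 0.13 without ZT3_RUN_6 and 0.12 without ZT3_RUN_1, respectively. Vldlr, the VLDL receptor, had the lowest value among the members. It held to a narrow band of 203 to 211 in ZT3_SED, with a median of 206, and spread from 103 to 207 in ZT3_RUN, with a median of 179. The log2 difference was -0.31 ± 0.20 (SE), and the lowest value came from the lymph node rich ZT3_RUN_4, without which the difference was -0.17. For all 32 members the 95% interval lay within 1 log2 unit of 0, and for 28 of them within 1.5-fold in either direction.

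Exercise at ZT15 gave no member past the threshold either. Limma called 0 of the 32 members, against 0.641% of all genes. An unadjusted p under 0.05 was held by 2 of the 32 members and by 2055 of all 16233 genes, which is the larger share. Of the 19 enzymes, 7 lay above 0, with a median log2 difference of -0.01. Again 0 of 32 members had non-overlapping groups, compared with 1.75% of all genes. edgeR's quasi-likelihood test and DESeq2 on the recovered reads also called 0 members in both exercise comparisons.

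Pmvk, which adds the second phosphate to mevalonate, had the smallest p at ZT15. Its signal was 58.7, 72.4 and 89.5 (lowest, median, highest) in ZT15_SED and 63.9, 115 and 136 in ZT15_RUN. Of the exercised libraries 4 stood above the whole sham range and 2 fell inside it. The log2 difference was 0.49 ± 0.20, a 1.40-fold difference, with an adjusted limma p of 0.306. Averaged over both times Pmvk differed by 0.37 ± 0.14 (adjusted p = 0.407), when 0 of 32 members and 0.142% of all genes passed. At ZT3 both its highest value, 125, and its lowest, 45.1, were in exercised libraries.

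Abca1, which loads cholesterol onto apolipoprotein A-I, had the other unadjusted p under 0.05 at ZT15. The signal was 564, 686 and 808 in ZT15_SED and 614, 808 and 1114 in ZT15_RUN. At ZT3 the order was the opposite, with 846, 969 and 998 in ZT3_SED and 705, 814 and 1025 in ZT3_RUN. The log2 differences were 0.27 ± 0.13 at ZT15 (adjusted p = 0.394) and -0.17 ± 0.13 at ZT3 (adjusted p = 0.989). Their difference, the test of whether the response to exercise depended on time, was 0.45 ± 0.19 with an adjusted p of 0.583. Vldlr had an interaction of 0.59 ± 0.28 with the same adjusted p of 0.583, and 0.27 without the lymph node rich libraries. In this test 0 of 32 members and 0% of all genes passed. An unadjusted p under 0.05 was held by 2 of 32 members and by 1273 of all 16233 genes, again the larger share.

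**Figure D2:**
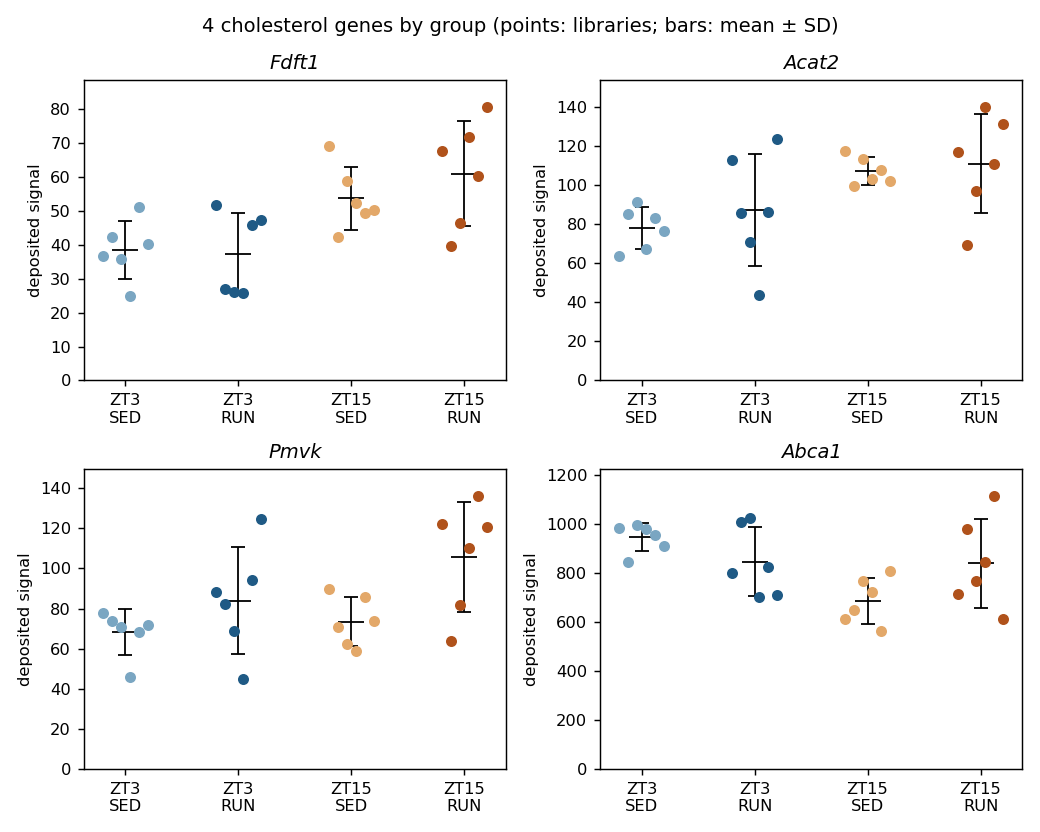
Deposited signal of Fdft1, Acat2, Pmvk and Abca1 in each library (points) of the 4 groups, with group means ± SD (bars, n = 6). Fdft1 and Acat2 stand higher at ZT15 with overlapping ranges, and Abca1 in sedentary animals ran from 846 to 998 at ZT3 and from 564 to 808 at ZT15.

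By time of day 1 member passed the test. Fdft1 (ENSMUSG00000021273), squalene synthase, which commits farnesyl diphosphate to sterols, was higher at ZT15. Its signal was 25.0, 38.5 and 51.2 (lowest, median, highest) in ZT3_SED, 25.8, 36.4 and 51.7 in ZT3_RUN, 42.1, 51.1 and 69.2 in ZT15_SED, and 39.6, 63.9 and 80.5 in ZT15_RUN. Of the 12 ZT15 libraries 7 were above every ZT3 value, and the other 5 overlapped the ZT3 range. Averaged over both treatments the log2 difference ZT15 minus ZT3 was 0.60 ± 0.14, a 1.52-fold rise (limma, adjusted p = 0.0108). Fdft1 was the 1 of 32 members called in this comparison, in which 7.37% of all genes were called, so the members' share was below the background. It stayed past the threshold in 24 of 24 fits that each left out 1 library. Without the 3 libraries with Ucp1 above 200, all from ZT15, its log2 difference was 0.48 with an adjusted p of 0.0779. Those libraries also had the most Myh4. With the lymph node rich libraries left out as well, the Fdft1 difference was 0.41 with an adjusted p of 0.158.

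In the exercised animals alone Fdft1 rose by 0.72 ± 0.20 on the log2 scale (adjusted p = 0.0450), again as 1 of 32 members against 4.19% of all genes. The exercised groups overlapped for all members, and 2.27% of all genes had groups that did not. That call held in 10 of 24 leave-one-out fits, with an adjusted p of up to 0.116, reached without ZT15_RUN_6. Without the libraries with Ucp1 above 200 the adjusted p was 0.229. In sedentary animals the value was 0.48 ± 0.20 (adjusted p = 0.314). The contrasts by time share libraries with each other and with the exercise contrasts, so they are not separate evidence. In GENCODE M21, 774 exon bases of Fdft1, 18.3% of its exon length, lie opposite exons of Ctsb on the other strand. Ctsb, the lysosomal protease cathepsin B, had a mean signal of 1595 and a log2 difference by time of -0.12 ± 0.10 (adjusted p = 0.513). The kit keeps strand, but the strand setting of the counting is not given, and the part of shared reads was not tested.

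The enzymes on either side of Fdft1 in the pathway did not pass. Fdps, which makes its substrate, was at 4.47 to 14.6 at ZT3 and 4.62 to 7.87 at ZT15, with a log2 difference averaged over treatment of -0.25. Squalene epoxidase Sqle, which takes its product, had a log2 difference of -0.20, and lanosterol synthase Lss one of -0.11. Without the lymph node rich libraries these were -0.31 for Fdps, -0.31 for Sqle and -0.22 for Lss, and none passed. Across the 19 enzymes, 8 lay above 0 and the median was -0.03.

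Acat2 (ENSMUSG00000023832), which condenses 2 acetyl-CoA units at the head of the pathway, had the next smallest p by time. Its signal was 63.9, 79.8 and 91.4 (lowest, median, highest) in ZT3_SED, 43.8, 86.1 and 124 in ZT3_RUN, 99.4, 105 and 118 in ZT15_SED, and 69.4, 114 and 140 in ZT15_RUN. The sedentary groups did not overlap, whereas the exercised groups did. The log2 difference averaged over treatment was 0.42 ± 0.13, just outside the threshold at an adjusted p of 0.0521. In sedentary animals it was 0.46 ± 0.19 (adjusted p = 0.284) with the spread estimated over all 4 groups, of which the exercised groups were the more variable. When only the 2 sedentary groups entered the fit, Acat2 and Abca1 both passed. The share of all genes called in that fit is not given here, so these calls are not shown to be particular to the members. Acat3, a close relative of Acat2 looked up after these values were seen, had a mean signal of 3.07 and differed by 0.38 ± 0.09 in the same direction (adjusted p = 0.0126). Reads of such near-identical copies can be split between them, so the values of both are uncertain.

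Abca1 in sedentary animals was the other member whose ranges did not overlap by time. All 6 ZT15_SED libraries were below all 6 ZT3_SED libraries, and the log2 difference was -0.47 ± 0.13 (adjusted p = 0.0812). Of the 32 members 2 had such ranges, compared with 2.51% of all genes, and limma called 0 members and 1.18% of all genes in this comparison. In exercised animals Abca1 differed by -0.02 ± 0.13.

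The storage gene and the other efflux and oxysterol genes did not pass by time. Averaged over treatment, Soat1, which esterifies cholesterol for storage, had a log2 difference of -0.38 ± 0.18 (adjusted p = 0.232). Abcg1, which exports cholesterol to HDL, had -0.37 ± 0.21 (adjusted p = 0.316), and Nr1h2, the gene of LXR beta, -0.12 (unadjusted p under 0.05). Cyp27a1, the sterol 27-hydroxylase, had 0.03. Macrophages express Abca1, Abcg1 and Soat1 strongly, so macrophage markers were read beside them. All 7 macrophage markers had values below 0 by time, with a median log2 difference of -0.53. Adgre1, the F4/80 antigen, fell by 0.74 (adjusted p = 0.0152) and Cd68 by 0.64 (adjusted p = 0.0262), and the other 5 did not pass. Of all genes, 3.14% were called lower in this comparison. The fall was not particular to macrophage markers. All 4 fibroblast or preadipocyte markers (median -0.50) and all 8 skeletal muscle markers (median -1.03) were also below 0. All 6 adipocyte and all 4 brown or beige markers were above 0, and the remaining marker lists were mixed. The summed signal of the 7 macrophage markers ran from 1040 to 2071 in ZT3_SED, 1260 to 2321 in ZT3_RUN, 772 to 1682 in ZT15_SED and 620 to 2009 in ZT15_RUN, with none at 0 in any library. The part of macrophage number in the efflux genes was not tested.

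**Figure D3:**
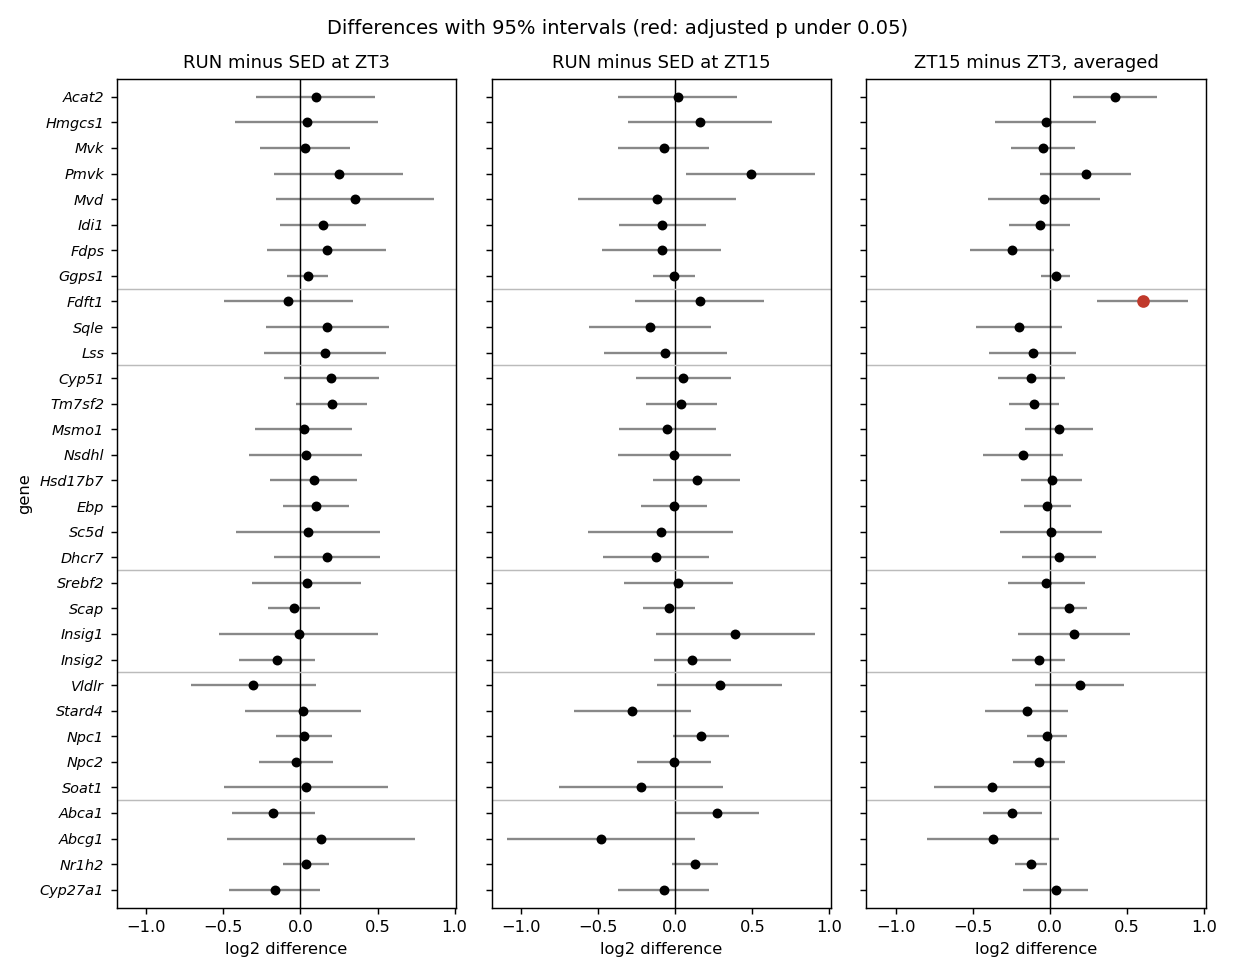
Log2 differences (points) with 95% intervals (lines) from limma for the 32 genes in 3 comparisons: RUN minus SED at ZT3, RUN minus SED at ZT15, and ZT15 minus ZT3 averaged over treatment. The single red point, Fdft1 by time at 0.60, is the only value past an adjusted p of 0.05 in these 3 panels.

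None of the 4 control genes of the SREBP system passed in any comparison. Srebf2, the gene of SREBP2, had log2 differences of 0.04 for exercise at ZT3, 0.02 for exercise at ZT15 and -0.03 by time. Without the lymph node rich libraries the Srebf2 exercise values were -0.10 at ZT3 and 0.18 at ZT15, so the first turned its sign. Scap lay at 31.1 to 42.0 at ZT3 and 34.0 to 44.8 at ZT15, a log2 difference of 0.12 that had an unadjusted p under 0.05 and did not pass. Insig1, itself an SREBP target, was at 296, 372 and 503 (lowest, median, highest) in ZT15_SED and 419, 489 and 573 in ZT15_RUN, and the log2 difference of 0.39 did not pass. Insig2, the isoform less dependent on SREBP, differed by 0.11 there and by -0.15 at ZT3, and without the lymph node rich libraries by 0.05 and -0.03.

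Libraries of the same group differed more in these genes than in the median gene. The within-group SD of log2(value + 1) had a median of 0.32 over the 19 enzymes and 0.30 over the 32 members, against 0.23 over all genes. Abcg1 had the largest SD, 0.54, followed by Soat1 at 0.47, Insig1 at 0.45 and Mvd at 0.45. The steadiest members were Ggps1, which makes geranylgeranyl diphosphate and leaves the sterol branch, at 0.10, and Nr1h2 at 0.12.

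Most of the enzymes moved together from library to library. After group means were removed, the 171 pairs among the 19 enzymes had a median Pearson r of 0.59 (Spearman rho 0.55) over the 24 libraries, and 160 of the pairs were above 0. The median over all gene pairs was -0.01. These libraries share depth scaling and tissue makeup, so the correlations are a description. Without the 2 libraries farthest from the median, ZT3_RUN_4 and ZT3_RUN_6, the median r was 0.48, and without the 3 lymph node rich libraries it was 0.56.

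Each enzyme was then compared with the mean of the other 18. Lss had the highest r, 0.93, followed by Nsdhl, a sterol C4 decarboxylase, at 0.92 and Acat2 at 0.88, so steps from the start, middle and end of the pathway moved together. In all, 18 of 19 enzymes had r above 0.5, compared with 10.3% of all genes. The exception was Ggps1 at 0.00, and Ebp only just passed the bound at 0.501 (rho 0.37). Without ZT3_RUN_4 and ZT3_RUN_6, Ebp fell to 0.16 and Tm7sf2 to 0.48. Without the lymph node rich libraries, Ebp was at 0.30 and Hsd17b7 at 0.47. Fdft1 was among the weaker followers at 0.64.

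The 13 other members mostly did not follow the enzymes. Insig1 and Npc2 did, both with r of 0.68, and Soat1 ran opposite with r of -0.53. Srebf2 had r of -0.07 and Scap -0.17, so the mRNA of the regulator did not track that of its known targets here. Without the lymph node rich libraries Srebf2 reached 0.28, and Abca1 went from -0.29 to -0.55. Without ZT3_RUN_4 and ZT3_RUN_6 the values were 0.65 for Insig1, 0.41 for Npc2, -0.24 for Soat1, -0.47 for Abca1 and 0.38 for Srebf2. Stard4 went from 0.19 to 0.59, so the order of these genes rests in part on those libraries.

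**Figure D4:**
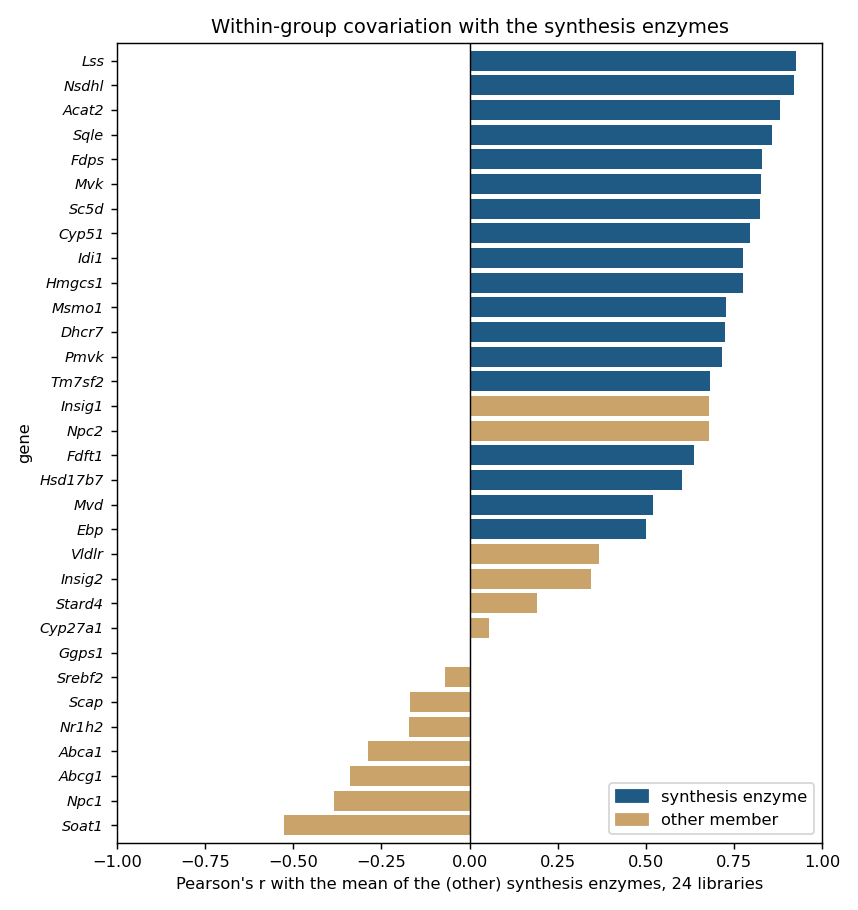
Pearson's r (x axis) of each of the 32 genes (y axis) with the mean of the synthesis enzymes, leaving the gene itself out, over 24 libraries after removal of group means. Blue bars are enzymes, of which 18 of 19 exceed 0.5, and tan bars are the other 13 genes.

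ZT3_RUN_6 and ZT3_RUN_1, at the high end of this pattern, and ZT3_RUN_4, at the low end, came from the exercised ZT3 group. The mean z score of the 19 enzymes was highest in ZT3_RUN_6 at 1.73 and ZT3_RUN_1 at 1.32, where 19 and 18 enzymes were above their group mean. It was lowest in ZT3_RUN_4 at -1.47, a lymph node rich library, and in ZT3_SED_4 at -0.95. Group means were -0.21 ± 0.52 in ZT3_SED, 0.21 ± 1.18 in ZT3_RUN, -0.01 ± 0.44 in ZT15_SED and -0.003 ± 0.58 in ZT15_RUN (SD, n = 6). The group means thus differed by less than the SD within ZT3_RUN. In Hmgcs1, for example, ZT3_RUN ran from 145 to 438, which spans all the other groups. Fasn, the fatty acid synthase and a target of the related SREBP1c, was also highest in ZT3_RUN_6 (25391) and ZT3_RUN_1 (25052). Its lowest values were in ZT3_SED_4 (9486) and ZT15_RUN_2 (9595).

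Several members were high in some or all of the lymph node rich libraries, which came from ZT3_RUN and ZT15_SED only. Abcg1 was at 133, 90.1 and 60.3 in the 3 lymph node rich libraries and between 23.5 and 56.6 in the other 21. Soat1 was at 68.8, 50.2 and 37.5 against 18.2 to 45.5. Srebf2 reached 65.1 in ZT3_RUN_4 and 60.8 in ZT15_SED_5, above its highest value elsewhere of 46.4, and was at 38.4 in ZT15_SED_3. Stard4, a cytosolic sterol carrier, was at 18.0, 19.0 and 15.3 against 6.79 to 17.8. The 3 libraries were therefore the highest of all for Abcg1, and 2 of them the highest for Soat1, Srebf2 and Stard4. The part of lymph node RNA in these values was not tested.

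Vldlr, Insig2 and Npc2 were low in 2 of the 3 lymph node rich libraries. Vldlr was at 103 in ZT3_RUN_4 and 130 in ZT15_SED_5, against 157 or more in the 21 libraries. Insig2 was at 30.2 and 35.9 in the same libraries, and at 41.1 or more in the 21. Npc2 was at 367 and 393, and at 433 or more in the 21. In the third library, ZT15_SED_3, they were not low: Vldlr was at 170, Insig2 at 46.2 and Npc2 at 584. Adipoq was likewise lowest in ZT3_RUN_4 (1101) and ZT15_SED_5 (1223) and stood at 2923 in ZT15_SED_3. The part of adipocyte content in these values was not tested. Without the lymph node rich libraries the Abcg1 log2 difference by time was -0.42 and passed (adjusted p = 0.0274), while its interaction moved from -0.62 to 0.06. The share of all genes called in that fit is not given here. Vldlr had its highest values, 427, 289 and 270, in ZT15_RUN_6, ZT15_SED_1 and ZT15_RUN_1. These are the libraries with Ucp1 above 200, and they also had the most Myh4. The part of beige fat or muscle RNA in these values was not tested.

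**Figure D5:**
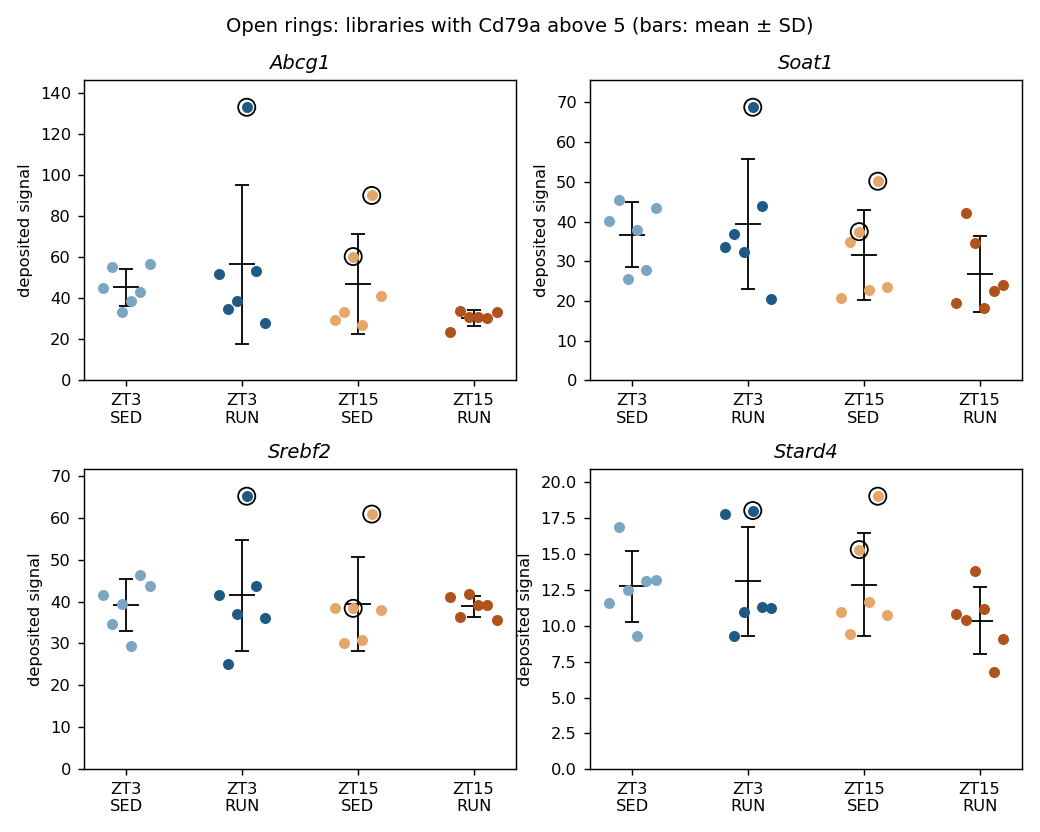
Deposited signal of Abcg1, Soat1, Srebf2 and Stard4 in each library (points) by group, with means ± SD (bars, n = 6) and open rings around the 3 libraries with Cd79a above 5. The ringed library of ZT3_RUN is at 133 for Abcg1, and the other 5 libraries of that group are at 27.8 to 53.4.

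Of 31 further sterol genes on a wider list, 0 passed in the exercise comparisons and 2 were called lower at ZT15 when averaged over treatment. In that comparison 7.37% of all genes were called, 4.24% higher and 3.14% lower, and the counts on these lists are to be read against those shares. Lipa, the lysosomal acid lipase that frees cholesterol from its esters, fell by 0.27 on the log2 scale (adjusted p = 0.0497), from 112 ± 21.6 to 91.3 ± 9.46 (SD, n = 12). Stard3, a late endosomal sterol binder, fell by 0.25 (adjusted p = 0.0343). Among 7 genes that use isoprenoids, Fntb, the beta subunit of protein farnesyltransferase, rose by 0.20 (adjusted p = 0.0367). Among 14 genes of fatty acid synthesis, Mlxipl, the gene of the carbohydrate-responsive factor ChREBP, rose by 0.58 (adjusted p = 0.0223), from 89.0 ± 29.1 to 129 ± 25.0, and the other 13 did not pass. The wider list had 20 of 31 genes above 0 by time with a median of 0.04, and the fatty acid list 5 of 14 with a median of -0.11, against a median of 0.003 over all genes.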

How the data were processed

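Total RNA was depleted of ribosomal RNA and sequenced from a stranded kit, per the labels' protocols. The deposited table holds 1 normalized signal per gene and library, made by the authors. Per the submitters' processing notes, the tools were STAR, Subread 1.6.2, featureCounts and limma 3.48.3, whose roles are not stated. The build, annotation and strand setting were not given in the sources used here. The deposited signal fell on whole multiples of 1 step per library (100% of 389592 values within 0.01 read), so whole reads were recovered for edgeR and DESeq2.

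The members and lists were chosen with earlier results of these data known. Differences are from limma 3.58.1 (R 4.3.3) on log2(value + 1), which understates changes of low genes: 1 group-means model over 24 libraries, trended moderation, 7 contrasts, two-sided, Benjamini-Hochberg over 16233 genes, threshold 0.05. Values are log2 differences ± SE unless called SD. A member is treated singly where it passed or had 1 of the 4 smallest p-values in a contrast; others, and the libraries singled out, were chosen after their values were seen. Alternatives were quantile normalization, median centring, dropping the lowest 25% of genes by mean level, moderation without trend or robust, a pseudocount of 0.1, fitting only the groups compared, blocks of 8 title numbers, lymphocyte and muscle marker scores, edgeR 4.0.16, DESeq2 1.42.0, a threshold of 0.1, and leaving out libraries. The scripts were tested on simulated data. No 2 libraries of a group were duplicates: chi-square over genes was at least 22.8 per degree of freedom in each of the 60 pairs.

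Library numbers within a group are in the order of the records. Of the members, 6 share exon bases with another protein-coding gene in GENCODE M21 (Cyp51, Fdft1, Fdps, Ggps1, Npc1 and Tm7sf2), and how shared reads were assigned is not stated. The shared bases are on the same strand for Fdps (26.7% of its exon bases, with Gm43738) and Tm7sf2 (12.1%, with Vps51), and on opposite strands for the others.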

Additional observations from a re-analysis of the deposited data

Results flagged for a closer look

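Among 128 groups of 6 libraries (32 genes in 4 groups), 9 held a library set apart from the rest of its group by a gap above Dixon's 95% critical value, and chance flags about 1 in 20. Abcg1 was at 133 in ZT3_RUN_4, where the next library was at 53.4, and Vldlr at 427 in ZT15_RUN_6, where the next was at 270. Abcg1 was also low in ZT15_RUN_1, at 23.5 against 30.3 for the nearest. Srebf2 was at 60.8 in ZT15_SED_5 (nearest 38.4). ZT3_RUN_4 and ZT15_SED_5 are lymph node rich. ZT15_RUN_1 and ZT15_RUN_6 have Ucp1 above 200 and also high Myh4, at 8995 and 22114.

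The other 5 were enzymes. Msmo1, a sterol C4 methyl oxidase, was at 40.6 in the lymph node rich ZT15_SED_3 (nearest 28.7). Pmvk was low in ZT3_SED_4, at 45.8 (nearest 68.5). Nsdhl was at 57.7 in ZT3_SED_3 (nearest 45.3), Sqle at 25.1 in ZT3_SED_2 (nearest 19.7) and Ggps1 at 59.3 in ZT15_RUN_4 (nearest 50.8).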

How the results depend on the processing

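No member was called for exercise at ZT3, exercise at ZT15, their interaction or exercise averaged under any alternative run. The time comparisons moved. For ZT15 against ZT3 in sedentary animals the count of members called went from 0 to 2 when only the groups compared were fitted and to 1 with DESeq2 (Abca1) or a threshold of 0.1. In exercised animals it went from 1 to 0 with quantile normalization, only the groups compared, lymphocyte and muscle scores, and without the lymph node rich libraries, those with Ucp1 above 200, or both, and to 2 with DESeq2 (Fdft1 and Abcg1). Leaving out 1 library at a time gave 0 to 1. Averaged over treatment it went from 1 to 2 with quantile normalization (Fdft1 and Abca1), without the lowest 25%, with DESeq2, with a threshold of 0.1, or without the lymph node rich libraries, to 6 with lymphocyte and muscle scores (Acat2, Fdft1, Vldlr, Soat1, Abca1 and Abcg1), and to 0 without libraries with Ucp1 above 200 or without both sets. Leaving out 1 library gave 1 to 2. The Abcg1 interaction of -0.62 reversed to 0.11 with the scores, 0.055 without the lymph node rich libraries and 0.065 without both sets. The share of all genes called under each alternative is not given here. A changed count is therefore not shown to be particular to the members, and the cause of these moves was not tested. The alternatives without Ucp1-high libraries were chosen after seeing the data. Contrasts over all 4 groups have no smaller set of groups to fit. The largest shift in the median of all genes under another scaling was 0.07. No paired analysis was possible because the labels give the groups no shared replicate numbers. For members at low signal, such as Fdps with as few as 77 reads in a library, counting error adds to the spread.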
